A study of Mus musculus with 9 samples.

Results

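The genes described here are the histone variants that are made outside DNA replication. They are a list of 9 genes taken by name, all of which were found among the 21909 gene symbols of the deposited tables: H3f3a and H3f3b (histone H3.3), H2afz and H2afv (both forms of H2A.Z), H2afx (H2A.X), H2afy and H2afy2 (macroH2A), H2afj (H2A.J) and H1f0 (linker histone H1.0). Poly-A RNA was sequenced from cells that had been sorted out of the main olfactory epithelium at a mouse age of 4 weeks. An anti-CD54 antibody coupled to PE was used to sort horizontal basal cells (HBC), the reserve stem cell layer. The Neurog1-EGFP reporter gave the cells labelled GBC, globose basal cells with early precursors of neurons. The OMP-ires-EGFP reporter, in which EGFP shares the transcript of the olfactory marker protein gene, gave the mature olfactory sensory neurons (mOSN). Each population had 1 library, so differences have no replicate check and p-values are not given. Strain, sex, number of animals and any pooling are not given in the labels. ScriptSeq chemistry was used for HBC and the Illumina mRNA kit for the other libraries, so kit and population cannot be told apart in any comparison with HBC.

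Most histone protein is supplied during S phase by genes that stand in clusters, and most of their mRNAs end in a stem-loop and carry no poly-A tail. A smaller set of genes lies outside the clusters, contains introns in many cases, and gives polyadenylated mRNAs through the whole cell cycle and in cells that no longer divide. Their proteins replace the replication-coupled histones as nucleosomes turn over. In long-lived neurons H3.3 is known to become the main form of H3. H2afx is an exception within the group, since it gives both a stem-loop mRNA during S phase and a polyadenylated mRNA, and only the polyadenylated form is expected to pass poly-A selection.

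H3f3a and H3f3b encode the same protein from different promoters, and H2afz and H2afv encode closely related forms of H2A.Z. Their levels are compared within each pair below, so the 250 bases before the start of each of these 4 genes are shown, from RefSeq's GRCm38.p6 annotation. The RNA values are on mm9, and only the gene names link them to these windows. Capitals mark CCAAT on either strand (read as ATTGG on the printed strand) and TATAAA. The H3f3b window is chr11:116024505-116024754 (minus strand), that of H3f3a is chr1:180813606-180813855 (minus strand), that of H2afz is chr3:137864237-137864486 (plus strand) and that of H2afv is chr11:6444444-6444693 (minus strand).
H3f3b: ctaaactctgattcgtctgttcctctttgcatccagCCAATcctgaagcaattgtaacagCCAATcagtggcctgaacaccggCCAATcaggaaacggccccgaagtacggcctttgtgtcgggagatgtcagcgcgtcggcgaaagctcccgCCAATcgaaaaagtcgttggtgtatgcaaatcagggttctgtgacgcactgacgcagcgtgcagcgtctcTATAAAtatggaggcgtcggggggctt
H3f3a: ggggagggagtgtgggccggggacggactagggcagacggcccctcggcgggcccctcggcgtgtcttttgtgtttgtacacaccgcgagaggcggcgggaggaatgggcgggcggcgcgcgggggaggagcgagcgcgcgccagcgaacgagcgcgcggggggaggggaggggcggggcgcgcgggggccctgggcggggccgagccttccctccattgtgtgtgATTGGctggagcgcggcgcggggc
H2afz: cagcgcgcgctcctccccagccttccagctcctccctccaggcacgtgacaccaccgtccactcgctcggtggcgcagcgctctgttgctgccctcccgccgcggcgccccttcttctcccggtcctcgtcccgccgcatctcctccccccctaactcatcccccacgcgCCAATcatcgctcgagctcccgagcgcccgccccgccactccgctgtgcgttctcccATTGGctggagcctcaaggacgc
H2afv: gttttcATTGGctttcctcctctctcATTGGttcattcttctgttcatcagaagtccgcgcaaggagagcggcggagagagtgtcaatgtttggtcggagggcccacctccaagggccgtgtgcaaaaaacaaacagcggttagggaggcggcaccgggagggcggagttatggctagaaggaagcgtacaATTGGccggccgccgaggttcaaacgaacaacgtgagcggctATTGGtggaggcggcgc

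The H3f3b window held 4 CCAAT matches and 1 TATAAA match, against 1 CCAAT match and no TATAAA match in the H3f3a window. H2afv also had 4 CCAAT matches, and H2afz had 2. The GC box (GGGCGG), not marked above, was searched as well. It had 4 matches in the H3f3a window, 1 each in those of H2afz and H2afv, and 0 in that of H3f3b. Of all windows, 32.7% held at least 1 GC box and 4.09% at least 4. Both strands were searched for each motif and overlapping matches were each counted. At least 1 CCAAT match stood in 33.8% of 32851 RefSeq windows of the same length, at least 2 in 10.1% and at least 4 in 0.840%, and at least 1 TATAAA match in 12.4%. G and C made up 54% of the H3f3b window, 77.2% of that of H3f3a, 71.2% of that of H2afz and 57.2% of that of H2afv. Promoter windows were matched for 8 of the 9 genes. Among those not printed, H2afj had 3 CCAAT matches and H2afy, H2afy2 and H1f0 had none. These matches describe letters only and were not compared with the RNA values.

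Levels are in FPKM, a fragment number divided by transcript length and by the mapped fragments of the library, with the interval that the authors' software gave. The intervals imply 18123443 fragments for HBC, 18087564 for GBC and 16516700 for mOSN, and between 126 and 24224 fragments behind each value of the 9 genes. All 27 of those values carried the status OK. Intervals hold no variation between animals or libraries. The implied fragments take their width as counting error alone, which was not tested. Libraries also differed in the number of implied fragments that made up 1 FPKM of the same gene. H3f3b had 132 implied fragments per FPKM in HBC, against 45.7 in GBC and 35.6 in mOSN, and H2afx had 22.6, 102 and 42.6. How the software set that conversion was not tested. Ratios of the 9 variants and counts of called genes are therefore also given with 1 conversion factor per gene in all libraries where this changes a call or turns a direction. The 8 macrophage markers summed to 3341 FPKM in HBC, 4.52 FPKM in GBC and 2.97 FPKM in mOSN, each between 43.0 and 1228 FPKM in HBC and at no more than 1.93 FPKM in GBC and 1.31 FPKM in mOSN, where Aif1 was at 0. The 6 basal cell markers, Krt5 and Krt14 among them, lay between 21.6 and 451 FPKM in HBC and at no more than 1.17 FPKM in GBC and mOSN. Immediate early genes summed to 3432 FPKM in HBC, 302 FPKM in GBC and 407 FPKM in mOSN, and 6 sustentacular cell markers to 1794, 38.0 and 141 FPKM. Of these markers Cyp2g1 was highest in mOSN, at 46.1 FPKM against 11.1 in HBC and 7.76 in GBC. All 4 that reached 5 FPKM in GBC or mOSN were more than 2-fold higher in mOSN. The part of these cells and of these early genes in the HBC values was not tested, nor was that of sustentacular cells in the mOSN values. The GBC library held 467 FPKM over 6 precursor markers and 1858 FPKM over 6 immature neuron markers, against 72.9 and 20.4 FPKM in HBC. Mature neuron markers were already at a sum of 1063 FPKM in GBC, against 8924 in mOSN and 143 in HBC. In sorted bulk samples, fewer cells of a type and less RNA per cell cannot be told apart.

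Summed over its genes, H3.3 carried the highest level of the group in all 3 libraries, and the balance between its genes differed most between HBC and the neuronal libraries. H3f3b (chromosome 11, 115883275 to 115885818, mm9) had 183 FPKM in HBC (interval 181 to 185), 468 in GBC (462 to 475) and 360.2 in mOSN (353.8 to 366.5). It was the highest of the 9 in GBC and mOSN, where 99.9% and 99.6% of the genes at or above 1 FPKM had a lower level. H3f3a (chromosome 1, 182732699 to 182743734) had 212 FPKM in HBC (208 to 215), 109.95 in GBC (106 to 114) and 69.3 in mOSN (65.8 to 72.8). H3f3a was thus highest in HBC and lowest in mOSN, the reverse of the neuronal excess of H3f3b in the deposited values. Against HBC, the log2 ratio of H3f3b was 1.35 for GBC and 0.97 for mOSN. Those ratios were 0.03 and -0.21 with 1 conversion factor per gene, so the higher H3f3b level in the neuronal libraries was not seen under that setting. With median-of-ratios scaling they were 0.72 and 0.13, both below 2-fold. For H3f3a the same ratios were -0.94 and -1.60 as deposited and -1.86 and -2.38 with 1 conversion factor. Between mOSN and GBC, which share a kit, H3f3a differed by -0.66 and H3f3b by -0.38 on the log2 scale, neither reaching 2-fold. The sum of both genes was 395 FPKM in HBC, 578 FPKM in GBC and 429 FPKM in mOSN. RefSeq also lists 2 pseudogenes named for H3f3a. The counting of fragments shared with such copies is not stated, and the H3f3a values are uncertain to that extent.

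**Figure D1:**
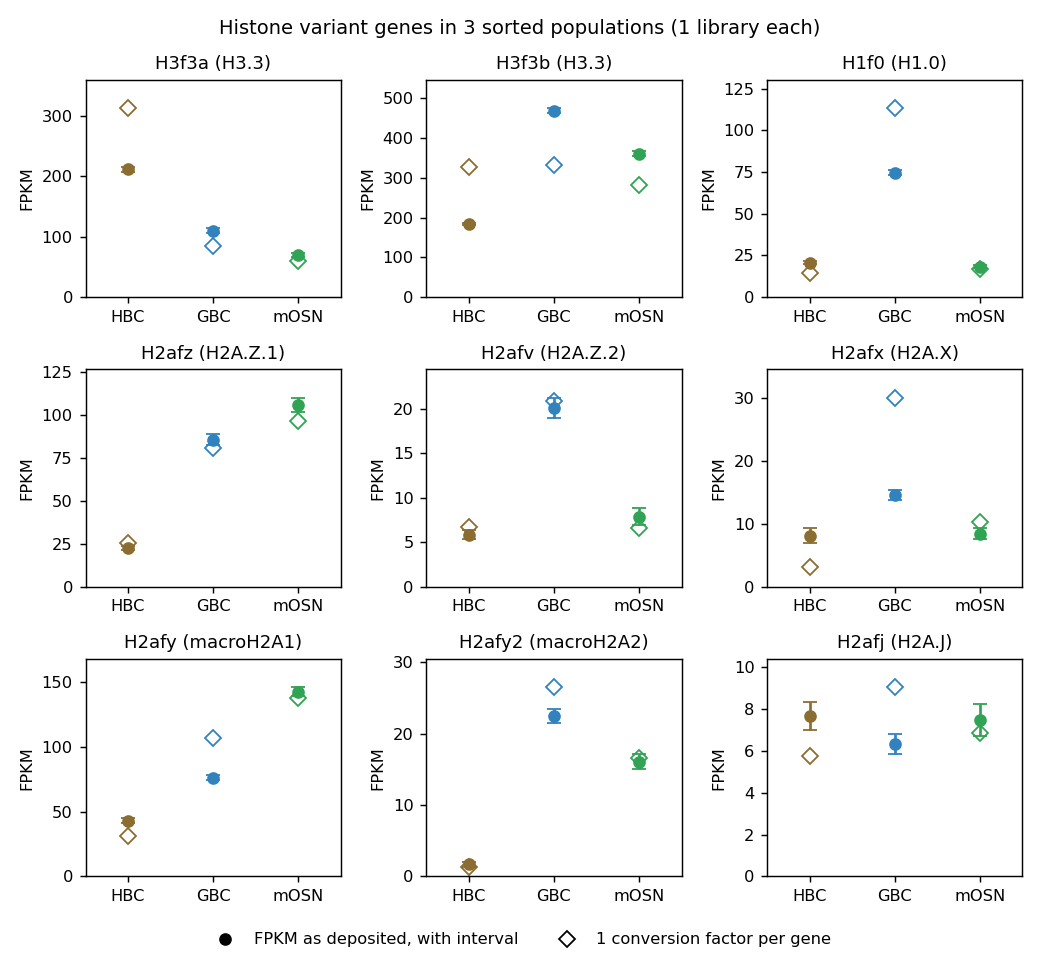
Levels of the 9 histone variant genes (FPKM, vertical axes from 0, a scale of its own per gene) in the HBC, GBC and mOSN libraries, 1 library each. Filled points are the deposited FPKM with the authors' interval, open diamonds are the values with 1 conversion factor per gene. H1f0 is highest in GBC (74.6 FPKM as deposited, 113 with 1 conversion factor), H2afy in mOSN (143 and 138 FPKM) and H3f3a in HBC (212 and 313 FPKM) under both settings, while H3f3b in HBC has 183 FPKM as deposited and 326 with 1 conversion factor.

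The share of H3f3b in the summed H3.3 FPKM depended less on the conversion, and not at all on library scaling. It was 46.4% in HBC, 81.0% in GBC and 83.9% in mOSN. It was 51.0%, 79.6% and 82.5% in the same order with 1 conversion factor per gene. H3f3b therefore made up most of H3.3 mRNA in both neuronal libraries under both settings, with 5.20 times the FPKM of H3f3a in mOSN, 4.26 times in GBC and 0.865 times in HBC.

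H2A.Z is placed at promoters and enhancers by the SRCAP and EP400 complexes, and its genes parted between precursors and mature neurons. H2afz (chromosome 3, 137527563 to 137529886), which encodes H2A.Z.1, had 22.5 FPKM in HBC (interval 21.2 to 23.9), 85.4 in GBC (82.2 to 88.6) and 106 in mOSN (101 to 110). H2afv (chromosome 11, 6327229 to 6344446), for H2A.Z.2, had 5.85 FPKM in HBC (5.32 to 6.39), 20.1 in GBC (19.0 to 21.2) and 7.89 in mOSN (6.96 to 8.81). Both were lowest in HBC and more than 2-fold higher in GBC than in HBC, by log2 ratios of 1.88 for H2afz and 1.62 for H2afv. In mOSN against GBC, H2afv was lower by a log2 ratio of -1.25 and H2afz differed by 0.30. Against HBC, mOSN was higher in H2afz by 2.18 and differed in H2afv by 0.38, or by -0.02 with 1 conversion factor. The H2afz difference was -0.07 with libraries rescaled to a common sum, so its direction between mOSN and GBC depends on scaling. Of the summed H2A.Z FPKM, H2afv made up 20.6% in HBC, 19.1% in GBC and 6.95% in mOSN. With 1 conversion factor per gene its mOSN share was 6.37%, against 20.6% in GBC.

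MacroH2A carries a large non-histone domain and is known from inactive and from DNA damage-associated chromatin. H2afy (chromosome 13, 56174983 to 56236911), for macroH2A1, had 43.2 FPKM in HBC (interval 41.7 to 44.8), 76.5 in GBC (74.9 to 78.1) and 143 in mOSN (140 to 146). Its level was ordered with the stage, and no interval overlapped another. The log2 ratio was 0.89 for mOSN against GBC, 0.81 for GBC against HBC and 1.70 for mOSN against HBC. With 1 conversion factor per gene the step between mOSN and GBC was 0.37 and that between GBC and HBC was 1.73, and with median-of-ratios scaling they were 0.68 and 0.18. The ratio for mOSN against HBC was then 0.87, below 2-fold. H2afy2 (chromosome 10, 61201395 to 61246612), for macroH2A2, had 1.68 FPKM in HBC (1.38 to 1.98), 22.5 in GBC (21.5 to 23.5) and 16.1 in mOSN (15.1 to 17.2). It was the lowest of the 9 in HBC, and its 13.4-fold difference between GBC and HBC was the widest of all 27 ratios. Of summed macroH2A FPKM, H2afy2 thus made up 3.73% in HBC, 22.7% in GBC and 10.1% in mOSN. Deposited tables give 1 value per gene, so the splice forms of macroH2A1 were not analysed here.

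**Figure D2:**
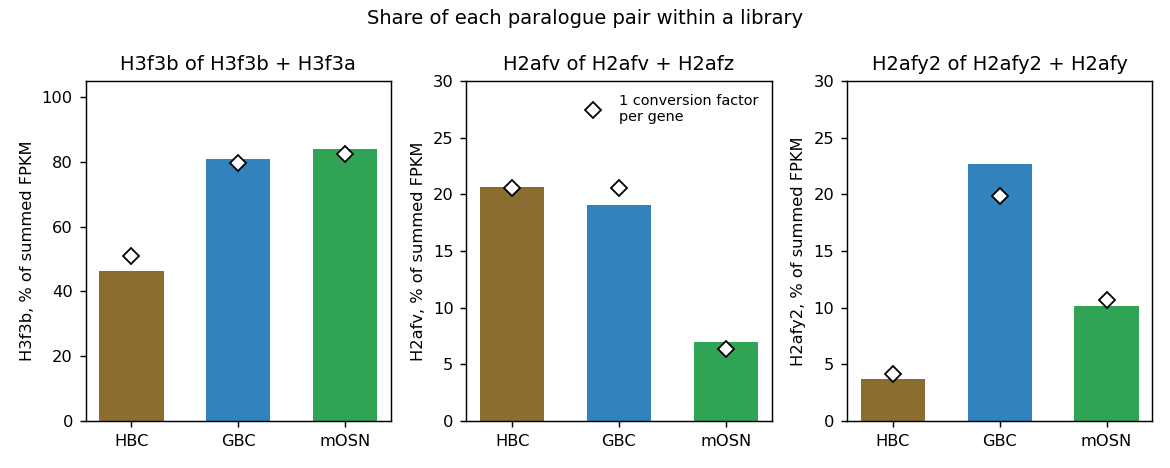
Share of 1 gene in the summed FPKM of its paralogue pair, in percent (vertical axes from 0, of different length), for the HBC, GBC and mOSN libraries. Bars are deposited values and open diamonds are values with 1 conversion factor per gene. H3f3b makes up 46.4% in HBC, 81.0% in GBC and 83.9% in mOSN, H2afv is lowest in mOSN at 6.95%, and H2afy2 is highest in GBC at 22.7%.

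H1.0 is the linker histone that is known to gather in cells that stop dividing. H1f0 (chromosome 15, 78858642 to 78860930) had 20.7 FPKM in HBC (interval 19.7 to 21.6), 74.6 in GBC (73.2 to 75.9) and 18.3 in mOSN (17.2 to 19.3). The log2 ratio was 1.80 for GBC against HBC and -1.97 for mOSN against GBC, the lowest of the 9 in that comparison. With 1 conversion factor per gene these were 2.87 for GBC against HBC and -2.69 for mOSN against GBC on the log2 scale. In mOSN against HBC the log2 ratio was -0.17 as deposited and 0.18 with 1 conversion factor, but -0.66 with libraries rescaled to a common sum and -0.97 with median-of-ratios scaling. Of the libraries made with the Illumina kit, mOSN thus held the lower H1f0 level.

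H2A.X is phosphorylated around DNA breaks. H2afx (chromosome 9, 44142798 to 44144156) had 8.07 FPKM in HBC (interval 6.87 to 9.26), 14.6 in GBC (13.8 to 15.3) and 8.44 in mOSN (7.55 to 9.33). GBC was highest, and the HBC and mOSN intervals overlapped. As deposited neither step reached 2-fold, with log2 ratios of 0.78 for GBC against HBC and -0.72 for mOSN against GBC. Both did with 1 conversion factor per gene (2.89 and -1.46), and the ratio for mOSN against HBC was then 1.43, against 0.06 as deposited. H2afj (chromosome 6, 136756769 to 136758595), for H2A.J, a variant known to accumulate in senescent cells, had 7.68 FPKM in HBC (7.00 to 8.36), 6.34 in GBC (5.86 to 6.82) and 7.47 in mOSN (6.70 to 8.25). Its mOSN interval overlapped both others, and its ratios changed sign with the conversion in every comparison. As deposited they were 0.21 for mOSN against GBC, -0.24 for GBC against HBC and -0.03 for mOSN against HBC, and with 1 conversion factor they were -0.35, 0.57 and 0.21.

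Ordered by deposited FPKM, a scale per transcript length that allows genes to be compared, HBC read H3f3a, H3f3b, H2afy, H2afz, H1f0, H2afx, H2afj, H2afv and H2afy2. In GBC the order was H3f3b, H3f3a, H2afz, H2afy, H1f0, H2afy2, H2afv, H2afx and H2afj. In mOSN it was H3f3b, H2afy, H2afz, H3f3a, H1f0, H2afy2, H2afx, H2afv and H2afj. Neighbours whose intervals overlapped were H2afz with H1f0 and H2afx with H2afj in HBC, H2afy with H1f0 in GBC, and H2afx with H2afv and H2afv with H2afj in mOSN. The order depended on the conversion. With 1 conversion factor per gene, H3f3b stood above H3f3a in HBC (326 and 313 FPKM), H2afx fell below H2afv and H2afj there (3.18, 6.67 and 5.78 FPKM), and H1f0 stood above H3f3a in GBC (113 and 85.3 FPKM). As deposited, H2afy stood in the second place in mOSN, where it made up 19.4% of the summed FPKM of the 9 genes, against 8.71% in GBC and 8.57% in HBC. H3f3a made up 9.41% in mOSN, 12.5% in GBC and 42.0% in HBC.

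A gene was called higher or lower at a 2-fold difference in FPKM + 1 (a log2 ratio of 1) and at least 5 FPKM in either library. All 9 variants passed the level filter in each comparison, H2afy2 through its neuronal level alone in those with HBC. In mOSN against GBC, 2 of 9 were lower (H2afv and H1f0) and none higher, where 9.23% of 8678 genes were lower and 25.2% higher. The median log2 ratio of the variants was -0.46, beside 0.29 over all genes tested. With libraries rescaled to a common sum, 4 of 9 were lower, H2afx and H3f3a joining the others, while the median over all genes was then -0.05. The median of the variants was -0.85 under that scaling. Shares of all genes called were computed for the deposited values only, so counts under other settings have no such share beside them. In GBC against HBC, 5 of 9 were higher (H2afy2, H2afz, H1f0, H2afv and H3f3b) and none lower, where 36.8% of 9101 genes were higher and 24.1% lower. H3f3b lost its call with median-of-ratios scaling and with 1 conversion factor per gene, under which H2afx and H2afy were called higher and H3f3a lower. The median was 1.35 for the variants and 0.51 for all genes. In mOSN against HBC, 3 of 9 were higher (H2afy2, H2afz and H2afy) and H3f3a was lower, where 44.4% of 9779 genes were higher and 21.4% lower, with medians of 0.38 and 0.79. The comparisons share libraries and are not independent of each other. Those with HBC also carry the kit difference and the macrophage and sustentacular marker levels given above. Sustentacular marker levels differed between mOSN and GBC as well. With median-of-ratios scaling the medians of the variants were -0.65, 0.72 and -0.37 in the same order, beside 0.10, -0.06 and 0.03 over all genes. The authors' intervals did not overlap in 24 of the 27 ratios. That share was not computed over all genes, so the count cannot be read as a trait of the variants.

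**Figure D3:**
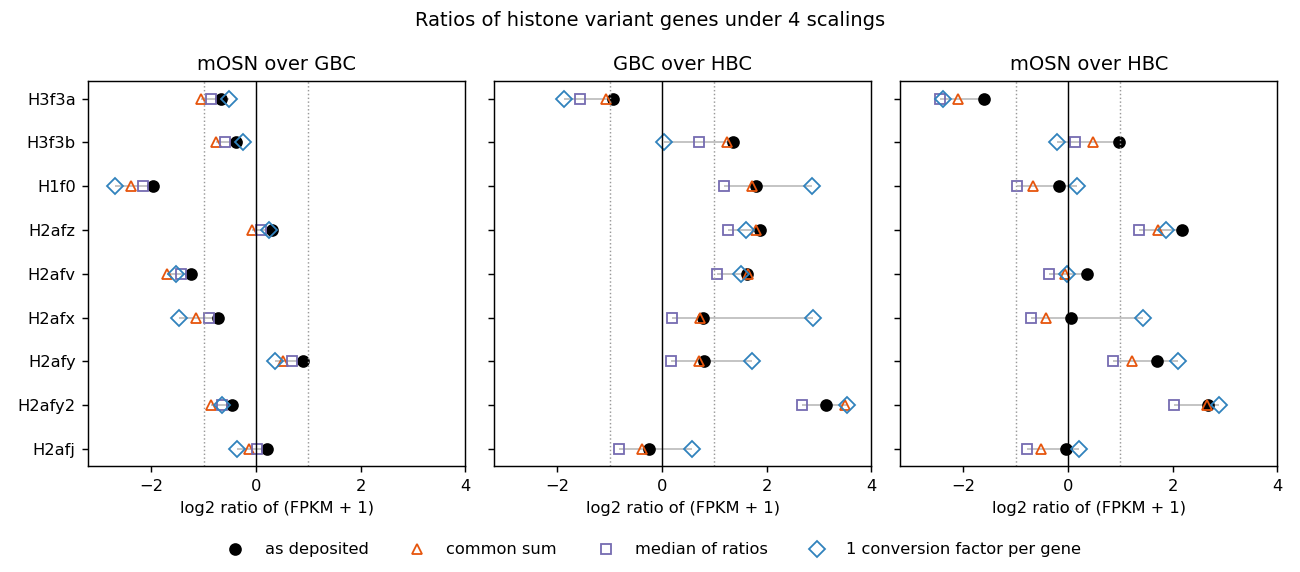
Log2 ratios of FPKM + 1 (horizontal axes, dotted lines at a 2-fold difference) for each histone variant gene in mOSN over GBC, GBC over HBC and mOSN over HBC. Markers are the deposited values, libraries rescaled to a common sum, median-of-ratios scaling and 1 conversion factor per gene. H2afv and H1f0 lie past 2-fold under all 4 settings in mOSN over GBC, as do H2afy2, H2afz, H2afv and H1f0 in GBC over HBC, and H2afy2, H2afz and H3f3a in mOSN over HBC.

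The same tables hold 68 clustered histone genes. At 1 FPKM or above there were 8 of them in HBC, 56 in GBC and 32 in mOSN. Of the summed FPKM of these genes and the 9 variants, the variants made up 89.0% in HBC, 51.4% in GBC and 46.6% in mOSN, on summed levels of 504, 878 and 736 FPKM. With 1 conversion factor per gene the shares were 93.8%, 38.4% and 41.2%, which turned the direction between GBC and mOSN. Since most clustered histone mRNAs lack a poly-A tail, these shares hold for poly-A RNA only. The 68 genes also include families without a counterpart among the 9 variants, such as H2B. The clustered sum was 845 FPKM for mOSN, of which H2A genes held 92.0, H3 genes 61.1 and linker genes 9.56 FPKM. For GBC it was 831 FPKM, with 141, 58.0 and 56.2 FPKM in the same order. Most clustered FPKM of both libraries thus came from unmatched families, and the share over matched families alone was not computed. Within H3 the variants held 99.8% in HBC, 90.9% in GBC and 87.5% in mOSN. They held 74.6% of H3 in GBC and 78.5% in mOSN with 1 conversion factor per gene. Within H2A the 6 variants held 88.0%, 61.6% and 75.8% in the order HBC, GBC and mOSN, and H1f0 held 49.8%, 57.0% and 65.7% of the sum of H1f0 and the 6 clustered linker histone genes. In mOSN a single clustered gene, Hist2h2be, an H2B gene with a known polyadenylated mRNA, had 604 FPKM, 1.68 times the level of H3f3b there. Its levels in GBC and HBC were 242 and 9.15 FPKM. Clustered histone genes have near-identical copies, and their single values are uncertain.

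**Figure D4:**
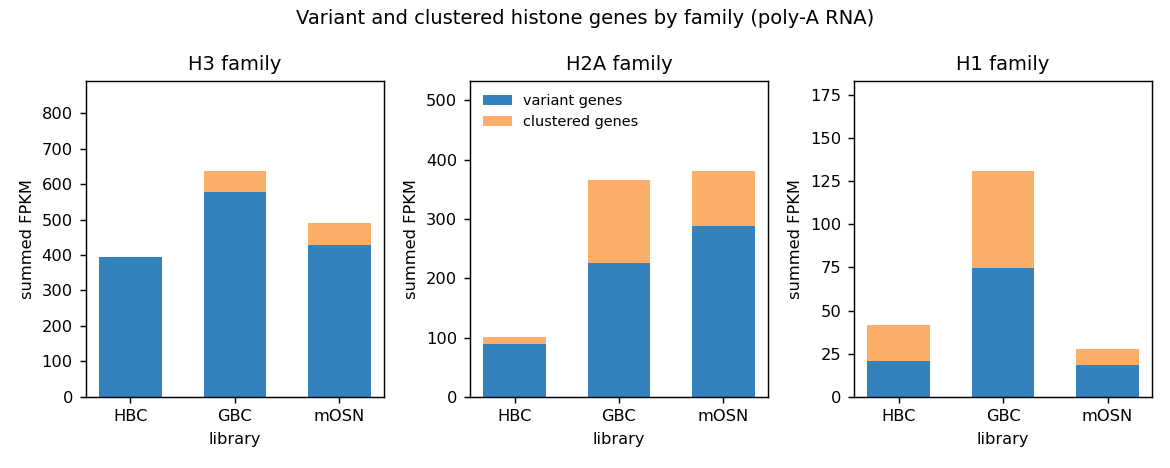
Summed FPKM (vertical axes from 0) of variant genes and clustered genes of the H3, H2A and linker H1 families in the HBC, GBC and mOSN libraries. Variants make up 99.8%, 90.9% and 87.5% of H3, and 88.0%, 61.6% and 75.8% of H2A, in the order HBC, GBC and mOSN.

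Other variants outside the list were also read. Cenpa, the centromeric H3, had 4.70 FPKM in HBC, 4.73 FPKM in GBC and 0.376 FPKM in mOSN. H1fx, a linker histone gene outside the clusters, had 0.571, 23.9 and 6.05 FPKM in the same order, with the GBC peak also seen for H1f0. H2afy3, listed in RefSeq as a transcribed pseudogene of the macroH2A family, stayed between 1.05 and 4.78 FPKM. H1foo, a linker histone gene of the oocyte, and the testis genes H1fnt, Hils1 and H2afb1 were under 1 FPKM in every library. The H2B genes that were read with them were not. Hist1h2ba had 0.0464 FPKM in HBC, 6.55 FPKM in GBC and 2.25 FPKM in mOSN, and Hist3h2ba had 0, 92.8 and 16.1 FPKM.

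Genes of DNA replication and mitosis were read as a sign of division. For this list and those below, 25.2% of all tested genes were higher and 9.23% lower in mOSN against GBC, as deposited. In GBC against HBC these shares were 36.8% and 24.1%. Of 15 replication and mitosis genes, 6 were tested in mOSN against GBC, that is, had 5 FPKM or more in either library, and 4 of these were lower in mOSN, none higher. A count of 5 lower was found with 1 conversion factor per gene. Top2a, the replication topoisomerase, had 0.403 FPKM in mOSN and 9.57 FPKM in GBC, and Mki67, a proliferation marker, had 0.240 and 6.54 FPKM. Mcm6 and Mcm7, of the replicative helicase, were at 0.933 and 1.68 FPKM in mOSN against 6.64 and 8.78 in GBC. The other tested genes stayed below 2-fold. Rrm1 was at 5.51 FPKM in mOSN and 10.3 FPKM in GBC, while Pcna went the other way, at 27.2 and 18.0 FPKM. Of the 9 variants, H2afv and H1f0 were also lower in mOSN at 2-fold, whereas H2afy was higher by 0.89 on the log2 scale. In GBC against HBC, 3 of 9 tested replication genes were higher and 1 lower, and the median of the 9 was -0.05 on the log2 scale. Only 1 was higher (Mcm7) and 1 lower with 1 conversion factor per gene, where Top2a was at 0.14.

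The genes that place H3.3 were measured in all libraries. HIRA with its partners UBN1, UBN2 and CABIN1 deposits H3.3 at active genes, and DAXX with ATRX does so at repeats. Of 9 such genes, 8 were tested in mOSN against GBC, with 2 higher and none lower, and 1 higher (Ubn2) with 1 conversion factor per gene, under which Dek came just short of 2-fold. Ubn2 had 12.6 FPKM in mOSN and 5.01 FPKM in GBC, and Dek, a chaperone of H3.3, had 7.15 and 2.69 FPKM. Hira itself had 9.25 FPKM in mOSN and 11.0 FPKM in GBC, Daxx 7.47 and 10.1 FPKM, and Atrx 19.5 and 16.2 FPKM. Asf1a, which hands H3 to both assembly routes, had 12.3 FPKM in mOSN, 8.38 FPKM in GBC and 1.88 FPKM in HBC, while its S-phase paralogue Asf1b had 0.235, 2.47 and 0.543 FPKM. In the replication-coupled route, Nasp, a chaperone of soluble H3, was lower in mOSN (7.16 FPKM) than in GBC (21.5 FPKM), the only call among 3 tested genes. Chaf1a and Rbbp4, subunits of CAF-1, had 6.23 and 23.9 FPKM in mOSN against 5.06 and 33.2 in GBC.

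For H2A.Z exchange, 15 of 16 listed genes were in the tables and 14 were tested in mOSN against GBC, with none higher and 1 lower. The lower gene was Vps72, an H2A.Z-binding subunit of its loading complexes, at 9.69 FPKM in mOSN and 23.4 FPKM in GBC. Ep400 was lower as well with 1 conversion factor per gene, but its mOSN value carries the status FAIL and an interval that starts at 0. Trrap (10.2 against 19.3 FPKM) and Ruvbl2 (12.6 against 20.6 FPKM) differed by less than 2-fold, as did Anp32e, which removes H2A.Z, at 31.3 FPKM in mOSN and 23.1 FPKM in GBC. In GBC against HBC, 5 of 14 tested genes were higher and none lower, beside 36.8% higher over all genes. With 1 conversion factor per gene 8 were higher. The H2A.X pathway had 12 of 20 genes tested in mOSN against GBC, with 1 higher and 2 lower, or 2 higher and 2 lower with 1 conversion factor per gene. Eya2, a member of the EYA family of phosphatases known to act on H2A.X, had 0.445 FPKM in mOSN, 49.9 FPKM in GBC and 43.0 FPKM in HBC. Trp53bp1, a break-repair adaptor, had 10.2 FPKM in mOSN and 21.9 FPKM in GBC, and the kinase gene Atr had 7.15 and 3.03 FPKM. Trp53bp1 was at -0.83 on the log2 scale, and no longer called, with 1 conversion factor per gene.

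Among macroH2A partners and splice regulators, 3 of 5 tested genes were higher in mOSN than in GBC and none lower. Qk and Mbnl1, splicing factors reported to favour the macroH2A1.1 exon, had 9.51 and 27.2 FPKM in mOSN, against 1.30 and 6.04 FPKM in GBC. Their HBC levels were 23.4 and 30.7 FPKM, so both were lowest in GBC. Mbnl2 had 76.7 FPKM in mOSN and 35.7 FPKM in GBC, and Parp1, which macroH2A1 is known to bind, had 16.7 and 28.2 FPKM. General histone chaperones gave 1 higher and 1 lower of 14 tested. Nap1l5, a member of the nucleosome assembly protein family, had 24.9 FPKM in mOSN, 1.04 FPKM in GBC and 0.0966 FPKM in HBC, and Npm3 had 2.02, 5.20 and 2.94 FPKM. In the processing of stem-loop histone mRNA, 1 of 6 tested genes was lower in mOSN, Lsm10 of the U7 particle, at 3.14 FPKM against 8.03 in GBC. Slbp, the stem-loop binding protein, was at 15.2 FPKM in mOSN and 9.29 FPKM in GBC.

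**Figure D5:**
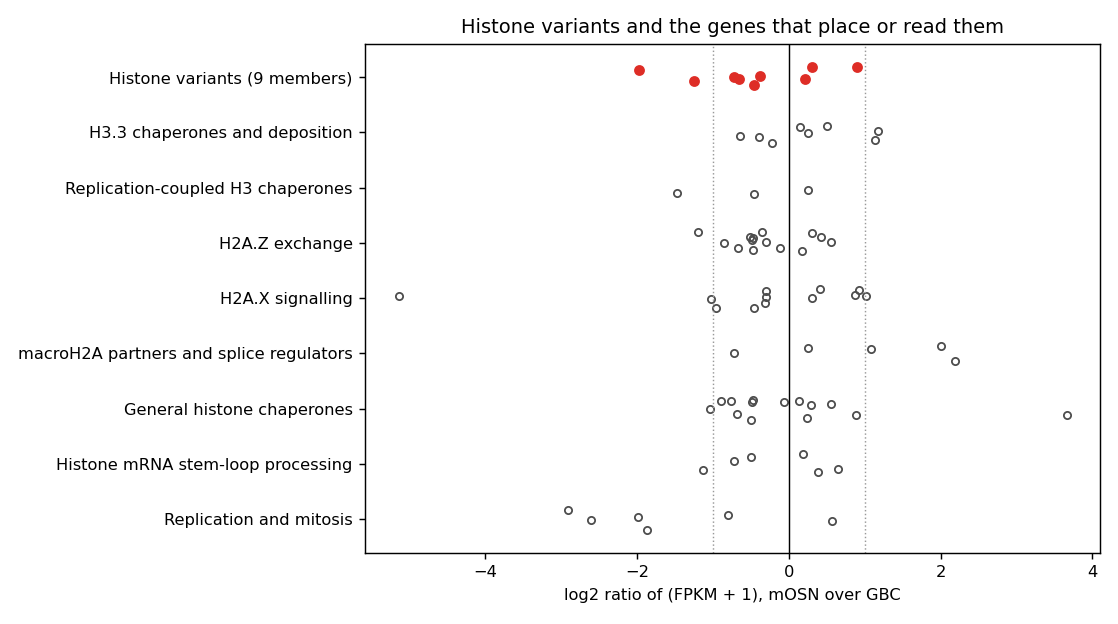
Log2 ratio of FPKM + 1 in mOSN over GBC (horizontal axis, dotted lines at a 2-fold difference) for the 9 variants (filled points) and for the genes of 8 lists that reach 5 FPKM in either library (open points), 1 point per gene. The vertical spread within a line carries no value. H1f0 at -1.97 and H2afv at -1.25 are the variants past 2-fold, and Eya2 at -5.14 and Nap1l5 at 3.67 stand farthest out among the lists.

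Genes with the most similar levels were taken as the smallest Euclidean distance of log2(FPKM + 1) over the 3 libraries, among 9336 genes of at least 5 FPKM in any. With 3 points per gene such likeness is a description only. The nearest to H2afz were Ptprs (distance 0.21) and Cs (0.27), and the nearest to H2afy were Skp1a (0.13) and Ypel3 (0.20). Arhgef2 (0.29) and Cnn3 (0.37) came closest to H1f0, and Tead1 (0.12) and Pole3 (0.14) to H2afv. For H2afy2 they were Dusp18 (0.06) and Llgl2 (0.15), for H2afx Phkg2 (0.06) and Cnot8 (0.11), and for H2afj Dguok (0.08) and Ctdp1 (0.09). H3f3a was matched by Akr1a4 (0.22) and Ptms (0.48). H3f3b had no close match, with Pkm2 at 0.76 and Rpl41 at 1.09.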

How the data were processed

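Messenger RNA of 3 sorted populations was analysed, 1 library each. The 6 DNA samples of the series (5-hydroxymethylcytosine and 5-methylcytosine) were not analysed here. The authors deposited FPKM per gene together with a status and both bounds of an interval, per the file headers. Bowtie, TopHat, Cufflinks and mm9 are named without versions, per the submitters' processing notes, and annotation and options are not stated there. Rows of 1 symbol were added up, and starts were raised by 1. Implied fragments were computed as the square of 2 times FPKM over the interval's half-width. For 1 conversion factor per gene, implied fragments were divided by the gene's geometric mean of fragments per FPKM over libraries and by a library factor from genes with at least 50 fragments in all libraries. Ratios were log2 of FPKM + 1, which understates low genes, and the call was 2-fold at 5 FPKM or more. No significance test was run, since each group has 1 library. Python 3.11.15, pandas 2.3.3 and matplotlib 3.10.9 were used. Genes named were all 9 variants, up to 4 per chromatin list with the largest mOSN to GBC ratio at 5 FPKM or more, and the 2 genes nearest to each variant. Other genes (Hira, Daxx, Atrx, Asf1b, Anp32e, Pcna, Rrm1, Cyp2g1, Hist2h2be, H2afy3 and those of the other variants list) were added as background after their values were seen. The members and lists were chosen with earlier results of these data known.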

Additional observations from a re-analysis of the deposited data

How the results depend on the processing

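Counts of variants called 2-fold were recomputed under 11 alternatives. The share over all genes was not recomputed, so a changed count may reflect a shift of all genes. Lower in mOSN than in GBC were 2 as reported, 1 with a pseudocount of 5 FPKM, 4 with libraries rescaled to a common sum, 3 with 1 conversion factor per gene (H2afx joined) and 0 at a 4-fold threshold. Lower in GBC than in HBC were 0 as reported and 1 (H3f3a) with rescaling to a common sum, with median-of-ratios scaling and with 1 conversion factor per gene. Higher in GBC than in HBC were 5 as reported, 4 with median-of-ratios scaling (H3f3b lost), 6 with 1 conversion factor per gene (H3f3b lost, H2afx and H2afy gained) and 1 (H2afy2) at 4-fold. Higher in mOSN than in HBC were 3 as reported, 2 with median-of-ratios scaling (H2afy lost), 4 with 1 conversion factor per gene (H2afx gained), 2 at 4-fold and 2 at 20 FPKM or more. Lower in mOSN than in HBC were 1 as reported and 0 at 4-fold. With 1 conversion factor per gene, the H3f3b share was 51.0% in HBC, 79.6% in GBC and 82.5% in mOSN, that of H2afv in GBC was 20.6%, the H2afy2 share in GBC was 19.9%, and variants made up 93.8%, 38.4% and 41.2% of the summed variant and clustered histone FPKM in HBC, GBC and mOSN. The cause of these shifts was not tested. The shares with clustered genes also count families that have no member among the 9 variants, such as H2B. Leaving out FAIL and LOWDATA rows and taking the highest row per symbol changed none of the values recomputed under them. Of 27 single-gene ratios, the sign changed in 6 with 1 conversion factor per gene, in 4 with the common sum and in 2 with median-of-ratios scaling. None of the 11 ratios past 2-fold as deposited changed sign. No paired analysis was possible because each population has 1 library, and for the same reason no replicate could be left out. Depth does not limit the higher variants, and H2afy2 in HBC rests on 126 implied fragments.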
